A study of Mus musculus with 6 samples.

Results

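The genes described here are Calm4, Calm5, Calml3, Lgals7, Krtdap, Sbsn, Dmkn, Mt4, Lypd3 and Ly6d, which are known from the spinous and later layers of the epidermis and encode no keratin. They were taken by symbol, and all 10 were found among the 30349 genes listed. The samples were 6 cultures of primary epidermal keratinocytes from mice at postnatal day 2, 3 labelled wild type (replicates 13, 14 and 15) and 3 labelled p63 alphaKO (replicates 9, 10 and 11). All 6 were kept until confluent, over 5 to 6 days, in a medium low in calcium (0.05 mM) that held EGF at 2.5 ng/mL and chelated serum at 4%. Each culture gave 1 library of 3' digital gene expression, an assay that reads the ends of transcripts. The labels give no strain, sex, litter or pooling of mice, and do not name the exons or the driver behind the p63 alphaKO genotype. Nothing in them ties a culture to an animal of its own either, so p-values measure only the spread between these samples, which may be technical.

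The epidermis is renewed by basal cells that leave the basement membrane, stop dividing and move upward through the spinous and granular layers to the dead surface layer. A rise in extracellular calcium drives this programme in cultured mouse keratinocytes, and medium low in calcium, as used here, holds most cells in a basal state while some still express early differentiation genes. The transcription factor p63, encoded by Trp63, is needed to form the epidermis and acts both in basal cells and at the start of differentiation; its alpha isoforms end in a long C-terminal tail. The genes described here act at several points of the programme. Calm4, Calm5 and Calml3 encode small calcium-binding proteins related to calmodulin, Lgals7 encodes the sugar-binding protein galectin-7 of stratified epithelia, and Krtdap, Sbsn and Dmkn encode secreted proteins of the suprabasal layers. Mt4 encodes a metallothionein of stratified epithelia, while Lypd3 (also called C4.4A) and Ly6d encode surface proteins of the Ly6 and uPAR family held by a lipid anchor.

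Several of these genes lie side by side (coordinates from GENCODE vM21 on GRCm38, the mm10 build). Sbsn, Dmkn and Krtdap follow each other on the plus strand of chromosome 7 within 39627 bases: Sbsn from 30751471 to 30756134, Dmkn from 30763756 to 30781063 and Krtdap from 30787896 to 30791097. Calml3 (3802896 to 3804316, minus strand), Calm4 (3837757 to 3838673, plus strand) and Calm5 (3854173 to 3854761, plus strand) lie within 51866 bases of chromosome 13. Lypd3 (24636550 to 24641118) and Lgals7 (28863853 to 28866284) lie elsewhere on chromosome 7, Ly6d lies on chromosome 15 (74762056 to 74763620, minus strand) and Mt4 on chromosome 8 (94137197 to 94139031). All 10 are annotated as protein-coding. RefSeq promoter windows on GRCm38.p6 were at hand for 8 of them, with none for Calml3 or Ly6d, and the 250 bases before each annotated start were read.

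Calm4 and Calm5 are shown first because nearly the same sequence stands before both genes, and yet Calm4 had 1471 to 5343 reads in each library and Calm5 at most 1. Compared without gaps, 205 of 206 bases were identical. The capital marks the base that differs. The Calm4 stretch (chr13:3837551-3837756, plus strand) ends at the base before the annotated start of the gene, and the Calm5 stretch (chr13:3853923-3854128, plus strand) ends 44 bases further from its own.
Calm4: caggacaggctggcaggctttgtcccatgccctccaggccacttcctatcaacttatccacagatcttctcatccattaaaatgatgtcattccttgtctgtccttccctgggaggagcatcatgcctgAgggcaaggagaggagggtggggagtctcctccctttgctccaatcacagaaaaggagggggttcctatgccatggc
Calm5: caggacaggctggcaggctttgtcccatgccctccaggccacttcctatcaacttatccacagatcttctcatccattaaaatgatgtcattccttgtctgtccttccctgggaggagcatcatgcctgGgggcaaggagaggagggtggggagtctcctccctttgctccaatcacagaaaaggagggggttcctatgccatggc

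Sbsn, Dmkn and Krtdap are shown because each held TGANTCA, a loose form of the AP-1 motif, in the 250 bases before its RefSeq start. No window of Calm4, Calm5, Lgals7, Lypd3 or Mt4 did. AP-1 is a family of dimeric factors of Jun and Fos proteins that act in keratinocyte differentiation. The motif was searched loosely as TGANTCA, with any base in the middle, which reads the same on both strands, and matches are in capitals. The middle base was A in the Sbsn match and G in the matches of Dmkn and Krtdap, so the 3 matches are not the same sequence. Of 32851 windows of the same length across the genome, 6.75% held a match. The match lay 119 bases before the start in Sbsn (chr7:30751221-30751470), 89 bases before the start in Dmkn (chr7:30763506-30763755) and 81 bases before the start in Krtdap (chr7:30787655-30787904), all on the plus strand. A further RefSeq start inside Dmkn also had a match, 82 bases before it.
Sbsn: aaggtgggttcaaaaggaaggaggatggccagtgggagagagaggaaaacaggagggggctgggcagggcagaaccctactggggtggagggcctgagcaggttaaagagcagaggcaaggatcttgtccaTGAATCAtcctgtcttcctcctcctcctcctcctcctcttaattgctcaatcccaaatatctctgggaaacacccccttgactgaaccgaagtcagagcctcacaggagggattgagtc
Dmkn: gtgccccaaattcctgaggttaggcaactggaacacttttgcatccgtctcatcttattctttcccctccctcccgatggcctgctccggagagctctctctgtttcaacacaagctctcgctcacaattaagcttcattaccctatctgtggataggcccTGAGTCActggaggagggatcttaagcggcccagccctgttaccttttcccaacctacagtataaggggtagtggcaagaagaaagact
Krtdap: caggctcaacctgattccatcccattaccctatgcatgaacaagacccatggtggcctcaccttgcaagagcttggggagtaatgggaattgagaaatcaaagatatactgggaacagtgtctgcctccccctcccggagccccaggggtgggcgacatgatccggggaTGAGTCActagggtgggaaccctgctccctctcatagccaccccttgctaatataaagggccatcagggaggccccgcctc

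Other motifs were rarer in these windows. An element of the p53 family, to which p63 belongs, was searched on both strands as CATG, 6 bases of any kind, C, 2 bases of any kind and G, and 9.19% of all windows held it. Among the genes described here it was found in Sbsn alone, 121 bases before the start, where it overlaps the AP-1 match. TATAAA, searched on both strands and held by 12.4% of all windows, was found 30 bases before the start in both Krtdap and Mt4. These matches describe letters in a window and are not binding sites shown by any measurement here.

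Levels are given in CPM, the reads of a gene scaled to a common library total so that 3 reads are worth 0.933 to 1.76 CPM. Wild type replicates 13, 14 and 15 held 3180984, 3215333 and 3146374 reads. The p63 alphaKO replicates 9, 10 and 11 held 2188705, 2999246 and 1699716 reads. Every p63 alphaKO library was thus shallower than every wild type library, and the part of depth in the differences was not tested. Because the assay reads transcript ends, a level does not grow with transcript length, yet capture can differ between genes, so genes are not ranked against each other here. A difference is a log2 fold change, p63 alphaKO minus wild type, fitted with limma on log2(CPM + 1) over the 11716 genes that averaged 1 CPM or more. A gene passed where its p-value, adjusted over all of these by the Benjamini-Hochberg method, was under 0.05. In bulk cultures, fewer cells expressing a gene and less of its RNA per cell cannot be told apart. Trp63 was at 38.02, 53.16 and 48.92 CPM in the wild type cultures and at 49.78, 59.32 and 57.01 CPM in p63 alphaKO (a log2 difference of 0.25, SE 0.26, limma adjusted p = 0.926), a level that does not check the genotype, since the altered stretch of Trp63 is not given. The keratinocyte identity of the cultures was plain, with 7 marker genes such as Krt5 and Krt14 summing to 19838 to 27925 CPM and 9 immune markers to at most 1.37 CPM. On the first principal component, with 33.2% of the variance, 4 libraries had scores of -26.86 to -8.74, wild type replicate 15 had 13.55 and p63 alphaKO replicate 11 had 61.15. Some results are also given without wild type replicate 15 and p63 alphaKO replicate 11, an alternative chosen after seeing the data.

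Of the 10 genes, 8 had enough reads to be tested and none passed over all genes. All 8 had group means above the filter of 1 CPM in both genotypes. Calm4, Lgals7 and Calml3 were lower in every p63 alphaKO library than in any wild type library. Ly6d and Krtdap had lower means in p63 alphaKO with overlapping libraries, while Sbsn, Dmkn and Lypd3 had nearly equal means. Among all genes tested, 0.0427% passed, 5.09% were lower in p63 alphaKO without overlap and 3.35% were lower with an unadjusted p under 0.05, against 3 of the 8 genes for both of the latter counts. In either direction, 6.36% of all genes had an unadjusted p under 0.05. By edgeR and by DESeq2 on reads recovered from the CPM, 0 of the 8 passed as well, where 0.0171% and 0.157% of the genes each tool adjusted over did. The median log2 fold change of the 8 genes was -0.39, beside 0.01 over all genes tested. Of the 8 genes, 7 lay below 0, as did 49.3% of all genes, with Dmkn and Lypd3 only at -0.03 each. The count below 0 was 8 with TMM scaling, 6 without p63 alphaKO replicate 11 and 5 without wild type replicate 15. The summed level of all 10 genes was 9587, 10243 and 9982 CPM in the wild type cultures (replicates 13, 14 and 15) and 7351, 9694 and 7391 CPM in the p63 alphaKO cultures (replicates 9, 10 and 11), so p63 alphaKO replicate 10 lay within the wild type range.

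**Figure D1:**
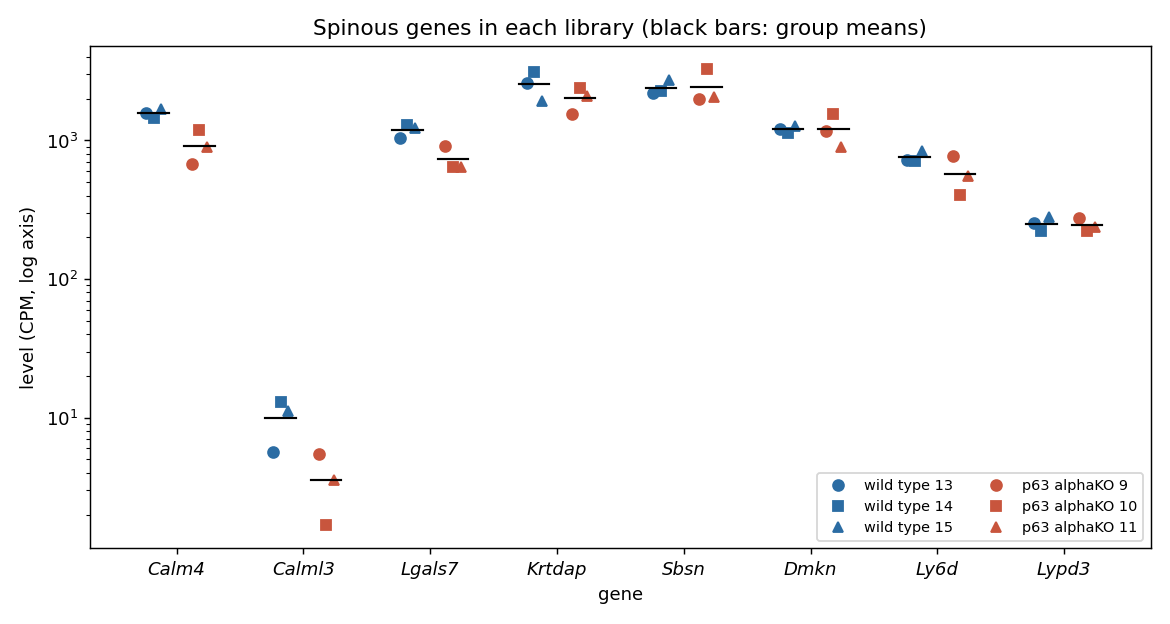
Level of each of the 8 genes with enough reads to be tested, in CPM on a log axis, with 1 point per library, wild type in blue and p63 alphaKO in red, and black bars at the group means. The groups are separate for Calm4, Calml3 and Lgals7 and overlap for the other 5 genes, and p63 alphaKO replicate 10 is the highest library for Sbsn and Dmkn and the lowest for Calml3 and Ly6d.

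Calm4, whose protein binds calcium in differentiating keratinocytes, was at 1573.83, 1454.81 and 1697.2 CPM in the wild type cultures. In p63 alphaKO, replicates 9, 10 and 11 had 671.74, 1190.68 and 891.06 CPM. The wild type cultures lay close together and the p63 alphaKO cultures were spread widely, with replicate 10 nearest to wild type and replicate 9 furthest from it. The group means were 1575 ± 121 and 918 ± 261 CPM (SD, n = 3), or 7.69% and 28.4% of the mean, so the p63 alphaKO mean stood at 58.3% of wild type. The log2 fold change was -0.81 (SE 0.24, 95% interval -1.31 to -0.32, limma unadjusted p = 0.00293, adjusted p = 0.519), the 66th smallest p of all genes tested. With 1471 reads in the library that had fewest, counting error was 2.61%, well under the spread between p63 alphaKO cultures. Without replicate 9 the log2 fold change was -0.61, and without replicate 10 it was -1.02. In the annotation, the span of a predicted gene, Gm40655, covers the whole of Calm4 on the same strand. Gm40655 is not among the genes listed. Of 251 windows of 50 bases at the end of the Calm4 transcript, which the assay reads, 0 occur in a transcript of any other gene.

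Calm5, the gene behind the near-identical upstream sequence, had 1 read in wild type replicate 14 (0.31 CPM) and 0 in the other 5 libraries. Since a count of 0 allows a level of up to 3 reads, the limit in those 5 libraries was 0.943 to 1.76 CPM. At the transcript ends, which the assay reads, the genes can be told apart: of 251 windows of 50 bases in the last 300 bases of the Calm4 transcript, 0 occur in a transcript of any other gene, and the same holds for both Calm5 transcripts. No difference between the genotypes was detectable for Calm5 at this depth.

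Calml3, the third calmodulin-like gene of the cluster and a partner of unconventional myosin-10 in epithelial cells, was a low gene. Its levels were 5.66, 13.06 and 11.12 CPM in the wild type cultures (18, 42 and 35 reads) and 5.48, 1.67 and 3.53 CPM in p63 alphaKO (12, 5 and 6 reads). The groups are separate only by the small step between wild type replicate 13 and p63 alphaKO replicate 9, whose exact 95% Poisson intervals, covering counting error alone, are 3.35 to 8.94 and 2.83 to 9.57 CPM. The log2 fold change was -1.29 (SE 0.47, 95% interval -2.28 to -0.29, limma unadjusted p = 0.0142, adjusted p = 0.726). It was -0.79 with a pseudocount of 5 CPM and -1.53 by both edgeR and DESeq2, since the pseudocount draws low genes toward 0. Without wild type replicate 15 and p63 alphaKO replicate 11 it was -1.22 (limma unadjusted p = 0.0502, adjusted p = 0.533).

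The calmodulins themselves showed smaller differences. Calm2 and Calm3, which encode calmodulin, had log2 fold changes of -0.13 and -0.09. Calm2 was at 322.06, 385.46 and 487.27 CPM in the wild type cultures and 322.86, 282.92 and 507.25 CPM in p63 alphaKO, with overlapping groups. Over 13 tested calmodulin and S100 genes, which share the EF-hand calcium-binding fold, 8 were lower and 5 higher, 0 passed by limma and 0 had an unadjusted p under 0.05 (median -0.09). S100a4 (-0.54, limma adjusted p = 0.850) and S100a9 (0.34, limma adjusted p = 0.885) had the smallest p among them. S100a9, a calcium-binding alarm protein, was at 464.07 to 617.51 CPM in the wild type cultures and 473.09 to 911.04 CPM in p63 alphaKO.

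The nearest tested neighbour of the calmodulin-like cluster was Net1, an exchange factor for the small GTPase RhoA, 27257 bases past Calm5. It was at 60.01, 77.09 and 69.25 CPM in the wild type cultures and at 24.2, 35.66 and 31.15 CPM in p63 alphaKO, without overlap. Its log2 fold change was -1.16 (SE 0.26, limma adjusted p = 0.293; edgeR 0.245, DESeq2 0.0366), so it passed by DESeq2 alone. Akr1c18, an aldo-keto reductase gene 277854 bases past Calm5, was also without overlap. It was at 56.56, 38.86 and 63.21 CPM in the wild type cultures and 26.49, 33.32 and 30.56 CPM in p63 alphaKO. Its log2 fold change was -0.77 (SE 0.28, limma unadjusted p = 0.0129, adjusted p = 0.716). Among all genes tested, 5.09% were lower in p63 alphaKO without overlap. On the other side of the cluster, Asb13 (149074 bases away) stood at -0.13 and Fam208b (191788 bases away) at -0.10, and neither passed by any of the 3 tools.

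**Figure D2:**
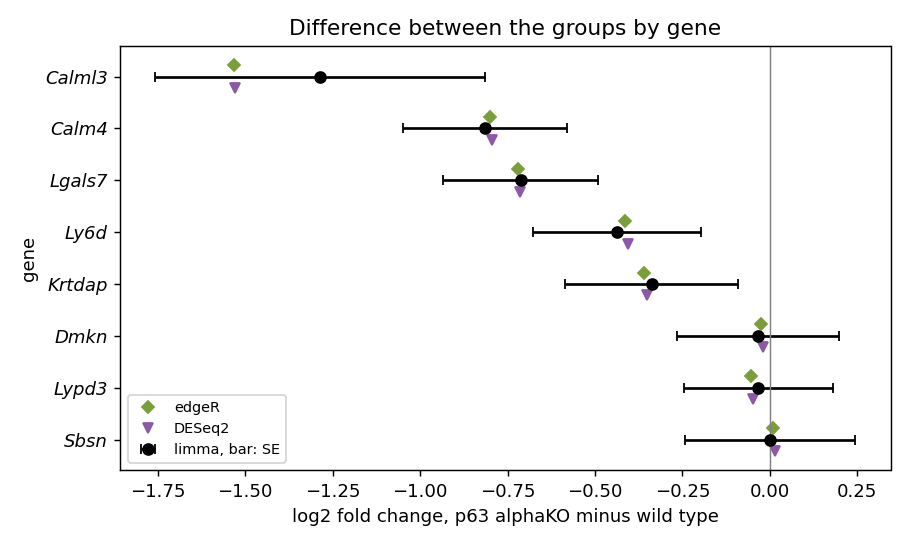
Log2 fold change of each of the 8 tested genes, p63 alphaKO minus wild type: black points are limma values with bars of 1 SE, green diamonds edgeR and purple triangles DESeq2. Calml3, Calm4 and Lgals7 lie between -1.53 and -0.71 by all 3 tools, and Dmkn, Lypd3 and Sbsn lie between -0.05 and 0.01.

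Lgals7 encodes galectin-7, a galactoside-binding lectin of stratified epithelia with roles in adhesion, wound closure and cell death. It was at 1040.32, 1287.88 and 1237.56 CPM in the wild type cultures and at 911.03, 638.16 and 647.14 CPM in p63 alphaKO. All p63 alphaKO libraries lay below all wild type libraries, and here replicate 9, the lowest for Calm4, lay nearest to wild type. The means were 1189 ± 131 and 732 ± 155 CPM (SD, n = 3), and the log2 fold change was -0.71 (SE 0.22, 95% interval -1.18 to -0.25, limma unadjusted p = 0.00503, adjusted p = 0.646). It lay between -0.88 and -0.60 under every alternative run. An antisense gene, Gm10648, spans Lgals7 and had at most 1.33 CPM in any library.

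The other galectins did not share this direction. On the CPM scale, all 5 that could be tested had log2 fold changes above 0 (0.05 to 0.36, median 0.29), and none passed by limma or had an unadjusted p under 0.05. Lgals1 (0.36, limma adjusted p = 0.892) was at 43.36, 60 and 63.21 CPM in the wild type cultures and 82.65, 48.99 and 87.58 CPM in p63 alphaKO, and Lgals8 (0.29, limma adjusted p = 0.914) at 43.21 to 47.76 and 45.32 to 64.07 CPM. Lgals3, which encodes galectin-3, was at 1322.16, 1085.82 and 1475.48 CPM in the wild type cultures and 1657.66, 1181.01 and 1201.99 CPM in p63 alphaKO (0.05).

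Sbsn encodes suprabasin, a secreted protein of the upper epidermis. It was at 2182.44, 2278.27 and 2713.67 CPM in the wild type cultures and at 1998.32, 3290.11 and 2056.61 CPM in p63 alphaKO. The highest and the lowest culture were both p63 alphaKO. Its log2 fold change was 0.001 (SE 0.24, limma adjusted p = 0.999), with a 95% interval from 0.701-fold to 1.43-fold of wild type, so differences inside that range are not excluded. In the last 300 bases of its transcripts, 230 or 231 of 251 windows of 50 bases also occur in Tmem147os, a non-coding transcript on the same strand, which had at most 0.67 CPM. How reads that match both genes were counted is not given, so the level of Sbsn is uncertain to that extent.

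Dmkn encodes dermokine, which the annotation gives 6 protein-coding transcripts with 4 different ends that a level per gene does not tell apart. It was at 1203.08, 1135.87 and 1270.59 CPM in the wild type cultures and at 1164.93, 1543.92 and 900.46 CPM in p63 alphaKO. The means were equal within the spread, at 1203 ± 67.4 and 1203 ± 323 CPM (SD, n = 3), while the p63 alphaKO libraries again held both the highest and the lowest value. For Dmkn the log2 fold change was -0.03 (SE 0.23, 95% interval 0.697-fold to 1.37-fold, limma adjusted p = 0.997).

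Krtdap encodes keratinocyte differentiation-associated protein, a small secreted peptide. It was at 2609.13, 3140.59 and 1940.51 CPM in the wild type cultures and at 1555.37, 2401.68 and 2104.81 CPM in p63 alphaKO. Wild type replicate 15 lay below 2 of the 3 p63 alphaKO cultures, so the groups overlap. Its log2 fold change was -0.34 (SE 0.25, 95% interval 0.550-fold to 1.14-fold, limma unadjusted p = 0.190, adjusted p = 0.885). It was -0.16 without p63 alphaKO replicate 9, -0.18 without wild type replicate 14 and -0.53 without wild type replicate 15. Without both wild type replicate 15 and p63 alphaKO replicate 11 it was -0.57 (limma unadjusted p = 0.00718, adjusted p = 0.299). That pair was chosen after seeing the data, and wild type replicate 15 was the lowest wild type culture for Krtdap.

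None of the 4 nearest tested genes on either side of the Sbsn to Krtdap stretch passed by limma, edgeR or DESeq2, and each had overlapping groups. Tmem147 (0.13), Usf2 (0.12) and Lsr (0.03) had limma adjusted p-values of 0.985, 0.985 and 0.997. Haus5, a low gene of the spindle machinery, stood at -0.35 (SE 0.48, 95% interval -1.35 to 0.66, limma adjusted p = 0.958).

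Ly6d encodes a small surface protein with a lipid anchor. It was at 718.58, 711.86 and 833.51 CPM in the wild type cultures and at 769.01, 405.56 and 550.15 CPM in p63 alphaKO. Of the latter, replicates 10 and 11 lay below every wild type culture, and replicate 9 lay among them. The log2 fold change was -0.44 (SE 0.24, 95% interval -0.94 to 0.07, limma unadjusted p = 0.0864, adjusted p = 0.816). It was -0.67 without replicate 9 and -0.21 without replicate 10, so each of these cultures moves the value by more than 1.5 times.

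Lypd3 encodes C4.4A, a surface protein of suprabasal keratinocytes. It was at 253.56, 220.4 and 278.26 CPM in the wild type cultures and at 275.36, 222.61 and 236.87 CPM in p63 alphaKO. The groups share nearly the same range, with SDs of 11.6% and 11.1% of the mean. The log2 fold change was -0.03 (SE 0.21, 95% interval 0.715-fold to 1.34-fold, limma adjusted p = 0.997).

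Among 10 tested relatives of Ly6d and Lypd3 with the same protein fold, 3 were lower and 7 higher in p63 alphaKO, with a median of 0.16 and none past the threshold by limma. By edgeR the same 10 genes were 5 lower and 5 higher: Psca stood at 0.21 by limma on log2(CPM + 1) and at -0.67 by edgeR, and Cd59a at 0.04 and -0.06. Ly6g6c was at 38.02, 64.97 and 49.55 CPM in the wild type cultures and 34.25, 25.99 and 22.34 CPM in p63 alphaKO, without overlap (-0.85, SE 0.29, limma unadjusted p = 0.00948, adjusted p = 0.661). Lynx1, a modulator of nicotinic acetylcholine receptors, was at 11.81 to 13.34 CPM in the wild type cultures and 16.46 to 21.66 CPM in p63 alphaKO, also without overlap, as 6.45% of all genes tested were in that direction (0.53, SE 0.32, limma adjusted p = 0.839).

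Mt4 was listed at 0 in all 6 libraries, where a count of 0 allows 0.933 to 1.76 CPM. The metallothioneins Mt1 and Mt2, zinc-binding proteins made in most cells on exposure to metal, were present. Mt1 was at 48.39, 67.46 and 386.58 CPM in the wild type cultures and 81.74, 37.66 and 43.5 CPM in p63 alphaKO, and Mt2 at 7.54, 17.1 and 64.16 and at 6.85, 0 and 9.4 CPM. Both were highest in wild type replicate 15, the library in which skeletal muscle markers summed to 647 CPM, and the part of that signal in these levels was not tested. Neither passed (limma adjusted p = 0.790 and 0.646, with overlapping groups).

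The genes did not follow a single pattern across the cultures, as the plot of deviations by library shows. Sbsn and Dmkn were most alike: after subtracting each gene's own mean, their log2(CPM + 1) values differed by 0.12 on average over the 6 libraries, the smallest of 28 pairs. Lgals7 and Ly6d came next at 0.18, and Calml3 and Sbsn were least alike at 0.71. Within p63 alphaKO, replicate 9 was the lowest culture for Calm4, Krtdap and Sbsn and the highest for Lgals7, Ly6d, Calml3 and Lypd3. Replicate 10 was the highest for Calm4, Krtdap, Sbsn and Dmkn and the lowest for Lgals7, Ly6d, Calml3 and Lypd3. In p63 alphaKO replicate 11, 0 of the 8 genes lay above its own mean.

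**Figure D3:**
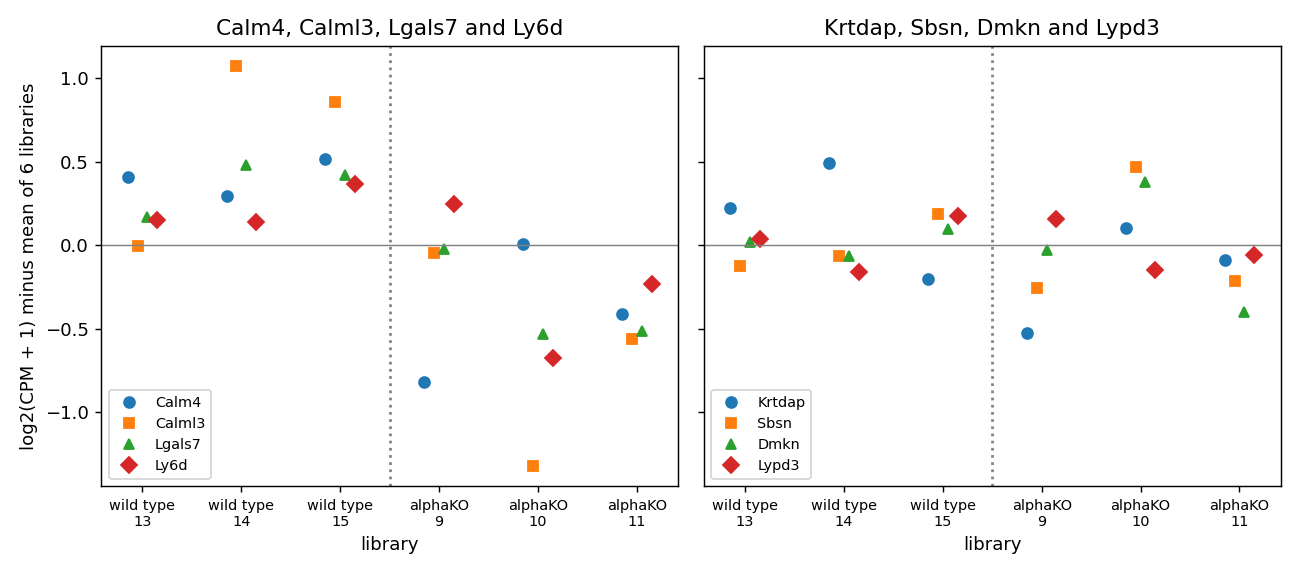
Log2(CPM + 1) of each gene minus its own mean over the 6 libraries, with 1 point per gene and library and a dotted line between the genotypes. In p63 alphaKO replicate 10, Sbsn (0.47) and Dmkn (0.38) lie above 0 while Calml3 (-1.32), Ly6d (-0.67) and Lgals7 (-0.53) lie below it.

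Ratios of the genes within each library compare them with each other. The pairs share genes, and those named were chosen after their values were seen. The log2 ratio of Calm4 to Sbsn was -0.47, -0.65 and -0.68 in wild type and -1.57, -1.47 and -1.21 in p63 alphaKO, a difference of -0.82. For Calm4 to Dmkn the means were 0.39 ± 0.03 and -0.39 ± 0.39 (SD, n = 3), and for Lgals7 to Dmkn they were -0.02 ± 0.20 and -0.70 ± 0.50. In each of these 3 pairs, and in 9 of the 28 in all, the groups did not overlap. Among single genes tested, 11.5% did not overlap in either direction, and no such share was computed for ratios. All of the 9 but Lypd3 to Ly6d hold Calm4, Calml3 or Lgals7, which were already separate on their own, so the 9 are not further results. For each of the 9 a two-sided exact permutation test gave p = 0.1, the smallest that 3 against 3 libraries can give. After adjustment over the 28 pairs it was 0.311, so the differences could not pass at this sample size. Calm4 and Lgals7 themselves did not separate by genotype when set against each other (difference -0.10, exact permutation p = 0.9).

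Among 1840 other genes averaging 100 CPM or more, those whose profile lay closest to Calm4 were Tmpo, Cnbp, 2310046K23Rik, Cnfn and Hopx. Their log2(CPM + 1) deviations differed from those of Calm4 by 0.10, 0.15, 0.17, 0.19 and 0.19 on average over the 6 libraries, where the median gene differed by 0.46. Cnfn encodes cornifelin of the cornified envelope, Hopx a homeodomain protein without DNA binding that is found in the upper epidermis, Tmpo a protein of the nuclear lamina and Cnbp a nucleic acid-binding zinc finger protein. Cnfn was at 305.09, 362.15 and 464.72 CPM in the wild type cultures and 190.43, 341.24 and 298 CPM in p63 alphaKO. Its low replicate 9 is part of the likeness to Calm4 by which it was picked. None of the 5 passed by limma (adjusted p 0.646 to 0.806).

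Closest to Lgals7 were Ssbp3, Tfg, Krt17, Rrm1 and Nab1, which differed from it by 0.14 to 0.16 where the median gene differed by 0.39. Krt17, a keratin of wounded epidermis and hair follicle that is also strong in culture, was at 5735.74, 6715.45 and 7644.85 CPM in the wild type cultures and 6642.51, 3390.08 and 4277.21 CPM in p63 alphaKO. For Krt17, replicate 9 lay among the wild type cultures and replicates 10 and 11 below them, while for Lgals7 all 3 lay below. Since Krt17 was picked for its closeness to Lgals7, a high replicate 9 within p63 alphaKO in both is part of that choice. Rrm1, a subunit of ribonucleotide reductase, was at 189.78, 205.48 and 199.17 and at 145.67, 153.96 and 118.73 CPM. None of these 5 passed by limma (adjusted p 0.758 to 0.795).

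Set beside other genes of the programme, the median of the spinous genes (-0.39) lay between those of the suprabasal keratins and of other differentiation genes. Krt1 passed and was lower in p63 alphaKO (log2 fold change -2.44, SE 0.32, limma adjusted p = 0.00686); of the 3 suprabasal keratins tested, all were lower, with a median of -1.60. Of 33 other early and suprabasal differentiation genes, 25 were lower and 8 higher by limma (median -0.16), and 23 and 10 by edgeR. By limma 0 passed and 3 had an unadjusted p under 0.05, as did 6.36% of all genes tested. Flg2, a filaggrin relative, was at 33.31, 30.77 and 17.15 CPM in the wild type cultures and 5.94, 31.66 and 3.53 CPM in p63 alphaKO, with replicate 10 highest within p63 alphaKO, as for Sbsn and Dmkn. Hes1, a target of Notch signalling, was at 87.99 to 117.2 CPM in the wild type cultures and 59.82 to 79.35 CPM in p63 alphaKO (-0.62, SE 0.24, limma adjusted p = 0.729). Basal layer genes had 6 of 13 lower, a median of 0.01 and none past the threshold by limma, with Krt15 at -2.02 (limma adjusted p = 0.299).

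**Figure D4:**
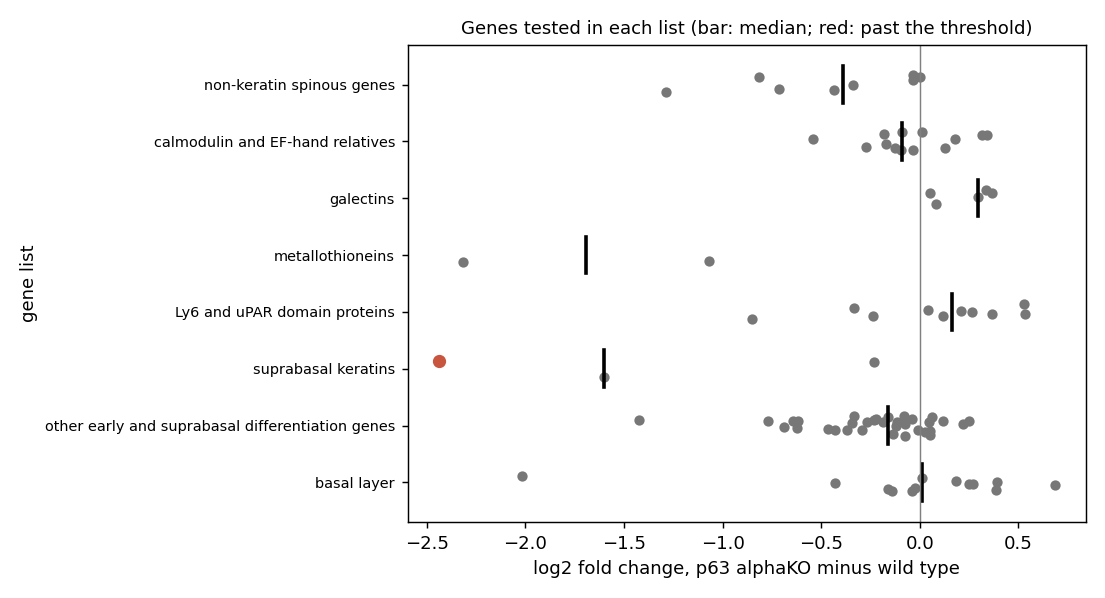
Log2 fold change, p63 alphaKO minus wild type, of every tested gene of the spinous genes and of 7 related lists, with 1 point per gene and a black bar at the list's median. Krt1, in red, is the only gene shown that passed the threshold, and the medians run from -1.69 for the 2 metallothioneins to 0.29 for the galectins.

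Markers of other cell types were present in amounts that varied between cultures. Melanocyte markers, 12 genes with none at 0 throughout, summed to 350 to 912 CPM in the wild type cultures and 259 to 1151 CPM in p63 alphaKO, and 8 of the 12 tested were lower in p63 alphaKO by limma and 6 by edgeR. Fibroblast markers, 10 genes with Lum at 0 throughout, summed to 28.0 to 72.6 and 15.3 to 74.3 CPM, and all 7 that could be tested were lower in p63 alphaKO (median log2 fold change -0.61). Skeletal muscle markers, 10 genes with Myh3 and Myh8 at 0 throughout, summed to 48.4, 61.9 and 647 CPM in the wild type cultures and 2.74, 10.0 and 51.1 CPM in p63 alphaKO, and all 7 that could be tested were lower there (median -2.65). Of these 7, 5 had a limma unadjusted p under 0.05 and 2 had groups without overlap. Among all genes tested, 3.35% and 5.09% were lower in p63 alphaKO by these 2 measures. Hair follicle and sebaceous markers, 10 genes with Lgr5, Krt25, Krt27 and Krt35 at 0 throughout, summed to 369 to 579 and 306 to 574 CPM, with 2 of 5 tested lower. None of these markers passed by limma. The part of these cells in the levels above was not tested.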

How the data were processed

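RNA from 3 wild type and 3 p63 alphaKO keratinocyte cultures was profiled. Per the labels, each column of the deposited table is 1 library. The deposited values are CPM: each column sums to 999047 to 999508. The submitters' processing notes name STAR, HTSeq and mm10. Their versions, the annotation and whether molecular identifiers were counted: not given in the sources used here. Dividing by the value of 1 read gave whole reads, within 0.1 read, for 100% of values above 0, and 1699716 to 3215333 reads per library. Reads without molecular identifiers are not independent molecules, so floors and intervals cover counting error only.

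The test was limma 3.58.1 (R 4.3.3) with a mean-variance trend on log2(CPM + 1) for genes averaging 1 CPM or more, two-sided, with Benjamini-Hochberg adjustment. This scale understates the change of low genes. In 3 simulated runs it called on average 2% of 1.5-fold, 26.7% of 2-fold and 85.3% of 4-fold changes, and 8.41% of calls were false. A gene that did not pass can therefore still differ by 1.5-fold or 2-fold. edgeR 4.0.16 and DESeq2 1.42.0 on the recovered reads, other pseudocounts, filters and scalings, no trend, and leaving out libraries were alternatives. Promoter sequences are RefSeq's.

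The genes and lists were chosen with earlier results of these data known. Named are the 10 genes, from each list the genes past the threshold or else the 2 of smallest p, the 5 genes of closest profile to Calm4 and to Lgals7, and up to 2 tested chromosomal neighbours on each side of each cluster. Others, such as Calm2 and Lgals3, were chosen after their values were seen. Genes that the rule names but that are withheld are not reported here.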

Additional observations from a re-analysis of the deposited data

How the results depend on the processing

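No paired analysis was possible because the groups share no replicate numbers. Under all 16 alternatives, 0 of the genes passed the adjusted threshold (by limma, edgeR or DESeq2), and the median log2 fold change lay between -0.46 and -0.33. Calm4 (-1.02 to -0.61), Lgals7 (-0.88 to -0.60), Calml3 (-1.61 to -0.79), Ly6d (-0.67 to -0.21) and Krtdap (-0.57 to -0.16) stayed below 0 in each. The genes below 0 numbered 8 of 8 with TMM scaling, 6 when p63 alphaKO replicate 11 was left out and 5 when wild type replicate 15 was. Sbsn, Dmkn and Lypd3, near 0, took either sign. Sbsn was at -0.019 with TMM and -0.074 with quantile scaling, and between -0.23 and 0.13 with 1 library left out. Dmkn was at 0.028 with quantile scaling and between -0.23 and 0.16 with 1 library left out, and Lypd3 between -0.12 and 0.045. Without wild type replicate 15 and p63 alphaKO replicate 11, an alternative chosen after seeing the data, Sbsn and Dmkn were both at 0.20 and Lypd3 at 0.066. Depth limits Calml3, Calm5 and Mt4.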
